A study of Rattus norvegicus with 6 samples.

Results

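The Wnt ligands, their receptors, their secreted modulators and the nearest feedback and nuclear genes were examined in cultured rat dorsal root ganglion cells. Such ganglia are clusters of sensory neurons and supporting cells beside the spinal cord. In these cultures the markers of neurons were low beside those of fibroblasts and mural cells. The members are defined by gene symbol, as every row of the deposited mRNA table named as a Wnt, Frizzled (Fzd), Frzb, Sfrp, Dkk, R-spondin (Rspo), Wif1, Axin, Lrp5, Lrp6, Lgr4 to Lgr6, Znrf3, Rnf43, Nkd, Lef1, Tcf7, Tcf7l, Ror or Ryk gene. This gave 49 genes of the 16551 in the table. The rat gene table of RefSeq holds 61 such symbols, and the other 12 (Axin1, Dkk1, Fzd8, Fzd10, Znrf3, Wnt1, Wnt3a, Wnt7b, Wnt8a, Wnt8b, Wnt9b and Wnt10a) are not analysed here.

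RNA was sequenced from 3 control samples and from 3 samples titled DM, which were taken as the group kept in high-glucose medium (45 mmol/L) over 48 h. All 6 came from ganglia of rats whose strain, age and genotype the labels do not give, and the glucose level of the control medium is not given either. The labels do not say whether the 3 samples of a group were separate cultures, animals or pools, so the p-values reflect the spread of these samples alone, and that spread may be technical. Each sample had 28780612 to 33108451 reads in the table. No sample controlled for osmolarity.

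Wnt proteins are secreted, lipid-modified ligands that bind Frizzled receptors together with the co-receptors Lrp5 and Lrp6. In the beta-catenin branch this stops the destruction of beta-catenin, which then binds TCF and LEF factors on target genes, while other branches run through Ror and Ryk receptors, cell polarity proteins or calcium. Secreted proteins tune the signal: Sfrp proteins and Wif1 bind Wnts, several Dkk proteins block the co-receptors, and R-spondins bind Lgr4 to Lgr6 and spare Frizzled receptors from removal by Znrf3 and Rnf43. In peripheral nerve and ganglia the pathway is known for its part in axon growth, glial development and pain signalling.

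The 3 R-spondins with more than a few reads rose in high glucose, led by Rspo2 at 6.43-fold. Of the 9 genes classed by name as secreted antagonists, 5 rose (Sfrp2, Frzb, Sfrp4, Dkk3 and Wif1) and 2 fell (Dkk2 and Sfrp1), each by at least 2-fold. What each does to Wnt signals in these cells was not tested. The nuclear factor Lef1 fell 3.09-fold, and the cytoplasmic inhibitors Nkd2 and Axin2 fell 1.92-fold and 1.76-fold. Receptors split evenly in the deposited scaling, with 6 higher and 6 lower (2 lower on plain library totals), and Fzd6 at 2.47-fold higher was the largest change among the well-read receptors. Among ligands, Wnt5a and Wnt4 rose by less than 2-fold, Wnt2 fell 2.82-fold, and most others were scarce.

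In all, 34 of the 49 members passed in limma (adjusted p under 0.05). High glucose had the higher level in 20 and the lower level in 14. Over all 16551 genes 50.5% passed, 24.9% higher and 25.5% lower, so a call by itself was common in these samples. Calls were more common among better-read genes. With a mean log2 of at least 0, 30 of 36 members passed (83.3%), and 61.7% of all genes at that level. A change of at least 2-fold past the same threshold was seen in 14 members, 10 higher and 4 lower, where 8.25% of all genes had one, 4.75% higher and 3.5% lower. Groups did not overlap at all in 33 members, and in 57.6% of the whole table. The median log2 fold change of the members was 0.09, against 0.01 over all genes, and the median of its absolute size was 0.49 against 0.28. On plain library totals, without the scaling factors in the deposited values, the median of all genes moved to 0.125 and the calls over all genes went from 4126 higher and 4228 lower to 5932 and 2847. The members then gave 20 higher and 8 lower. The 6 calls lost were Wnt11, Fzd1, Fzd3, Ror2, Ryk and Tcf7.

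**Figure D1:**
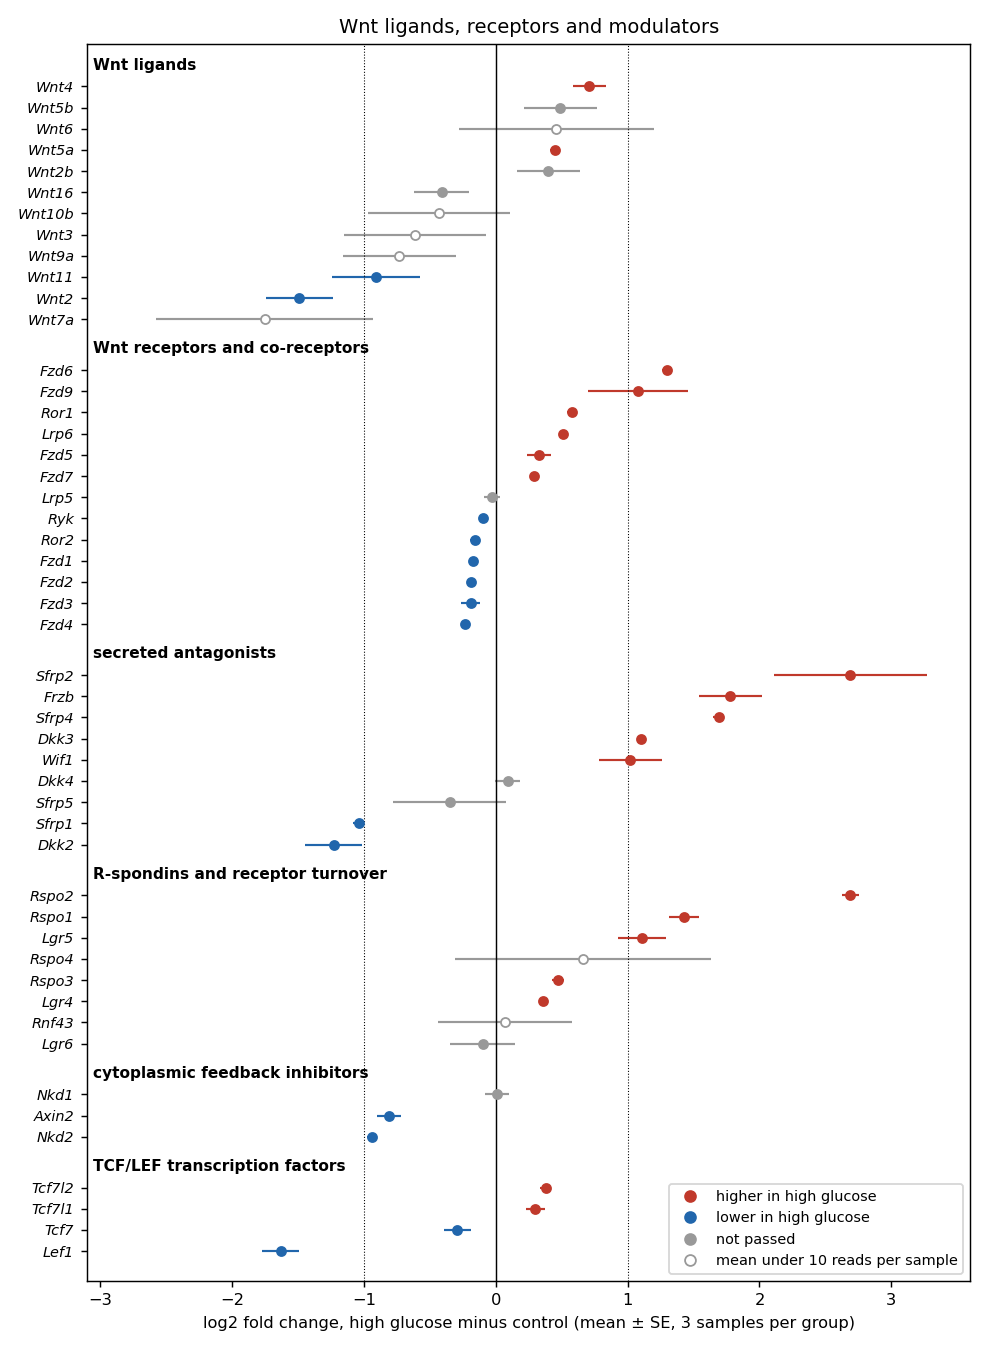
Log2 fold change of the 49 members, high glucose minus control, with its SE (horizontal bars, 3 samples per group), grouped by class. Red and blue points passed at an adjusted p under 0.05, open points had a mean under 10 reads per sample, and dotted lines mark 2-fold. Rspo2 and Sfrp2 lie farthest to the right at 2.69, and Lef1, at -1.63, is the lowest of the members that passed.

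Levels below are CPM, reads scaled to the size of the library, taken from the deposited log2 values. They are compared within a gene, because CPM is not corrected for gene length, and across genes only as sums and medians of cell type markers. Each log2 fold change is high glucose minus control, with its standard error after ±. RNA came from bulk cultures, in which fewer cells of a type and less RNA per cell cannot be told apart.

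Wnt5a, a ligand best known for signalling outside the beta-catenin branch, was read well in every sample. Its level was 53.8, 50.6 and 49.4 CPM in control 1 to 3 and 70.0, 70.3 and 70.1 CPM in high glucose 1 to 3. The groups did not overlap, and the log2 fold change was 0.45 ± 0.037 (adjusted p = 2.17e-07). Wnt4, another ligand of mesenchymal and nerve cells, stood at 5.35, 5.00 and 3.84 CPM in control and 8.35, 7.29 and 7.37 CPM in high glucose. Its log2 fold change was 0.71 ± 0.127 (adjusted p = 0.000368), again without overlap. Wnt2 went the other way, from 1.6, 2.15 and 1.34 CPM to 0.650, 0.527 and 0.601 CPM, on 149 reads against 55. This ligand of the beta-catenin branch had a log2 fold change of -1.49 ± 0.254 (adjusted p = 0.000243), and every high-glucose sample lay below every control.

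Wnt11, a ligand of polarity signalling, had 24, 16 and 17 reads in control and 10, 9 and 13 in high glucose, a log2 fold change of -0.91 ± 0.335 (adjusted p = 0.0371). The groups were apart, but the call ended on plain library totals (0.0615) and when control 1 (0.152), control 3 (0.0568), high glucose 1 (0.0722) or high glucose 2 (0.099) was left out. The other 8 ligands did not pass. Thus 4 of the 12 ligands passed (33.3%), 2 higher and 2 lower, where 50.5% of all genes did, 24.9% higher and 25.5% lower. Wnt2b, Wnt5b and Wnt16 had 86, 79 and 168 reads over the control samples and 124, 121 and 135 over the high-glucose samples, with log2 fold changes of 0.40, 0.49 and -0.41. Wnt16, which did not pass (adjusted p = 0.121), passed without control 1 (0.0401). Wnt3, Wnt6, Wnt7a, Wnt9a and Wnt10b each had a mean under 10 reads per sample. Their log2 fold changes ran from -1.75 for Wnt7a to 0.46 for Wnt6. Wnt3, Wnt6 and Wnt10b had 14, 7 and 20 reads over the control samples and 10, 15 and 19 over the high-glucose samples. Wnt7a had 3, 6 and 5 reads in control and 1, 5 and 0 in high glucose. Its adjusted p was 0.0948, and 0.0147 without high glucose 2. Wnt9a lay apart in the groups on 24 reads against 15 without passing (adjusted p = 0.178), and passed with 1 variance prior for all genes (0.0346).

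Of the 13 receptors and co-receptors, 12 passed, where 50.5% of all genes did, and 61.7% of those with a mean log2 of at least 0. Fzd6 had the clearest difference, at 27.7, 28.2 and 29.0 CPM in control and 68.6, 71.8 and 69.0 CPM in high glucose. The groups were far apart for this Frizzled receptor, known from cell polarity, and the log2 fold change was 1.30 ± 0.037 (adjusted p = 6.34e-12). Lrp6, a co-receptor of the beta-catenin branch, rose from 340, 343 and 339 CPM to 489, 478 and 491 CPM. That was a log2 fold change of 0.51 ± 0.019 (adjusted p = 1.02e-10), whereas its relative Lrp5 stood at 28.4 to 32.5 CPM in control and 27.4 to 31.4 CPM in high glucose and did not pass (-0.03 ± 0.061, adjusted p = 0.733). Ror1, a receptor kinase that binds Wnt5a, rose by 0.58 ± 0.038 on the log2 scale. Fzd7 and Fzd5 rose by 0.29 ± 0.022 and 0.33 ± 0.089.

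Fzd9 had few reads, 6, 7 and 6 in control and 10, 20 and 17 in high glucose. Its log2 fold change was 1.08 ± 0.381 (adjusted p = 0.031), and the call ended after quantile normalization (0.0559) and when any of control 1 (0.0547), control 2 (0.0519), control 3 (0.0647), high glucose 2 (0.139) or high glucose 3 (0.0796) was left out. The 6 receptors that were lower changed by small amounts. Fzd4, Fzd3, Fzd2 and Fzd1 had log2 fold changes of -0.23 ± 0.035, -0.19 ± 0.071, -0.19 ± 0.024 and -0.17 ± 0.023, Ror2 one of -0.16 ± 0.038 and Ryk one of -0.10 ± 0.024. Fzd2 and Fzd1 lay at 197 to 204 and 175 to 180 CPM in control and at 174 to 179 and 157 to 159 CPM in high glucose. On plain library totals Fzd2 and Fzd4 still passed, at -0.07 and -0.12, while Fzd1 (-0.05, adjusted p = 0.0853), Fzd3 (-0.08, 0.389) and Ror2 (-0.04, 0.365) did not and Ryk was at 0.01 (0.765). Fzd3, whose groups overlapped, also lost its call with 1 variance prior for all genes (0.12), after quantile normalization (0.0552) and when control 2 (0.107), control 3 (0.124) or high glucose 3 (0.16) was left out.

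The secreted antagonists held the most 2-fold changes of any class, 7 among 9 genes, where 8.25% of all genes had one. Sfrp4, a secreted Frizzled-related protein of connective tissue, was at 23.5, 24.2 and 22.5 CPM in control and 78.3, 72.5 and 75.3 CPM in high glucose. Its log2 fold change was 1.69 ± 0.042 (adjusted p = 1.76e-12), and the spread within either group was small beside it. Sfrp1, of the same family, moved the opposite way, from 59.6, 55.7 and 57.3 CPM to 28.5, 27.2 and 28.4 CPM. All high-glucose samples lay below all controls, and the log2 fold change was -1.04 ± 0.040 (adjusted p = 1.29e-10). Frzb, also called Sfrp3 and known from cartilage, rose from 0.918, 1.21 and 0.626 CPM to 2.75, 3.14 and 3.24 CPM (1.78 ± 0.238, adjusted p = 3.09e-05). Sfrp2 rose from 4, 1 and 9 reads to 21, 36 and 27 reads. The log2 fold change of Sfrp2 was 2.69 ± 0.578 (adjusted p = 0.00156). It was 1.94 without control 2 and 3.31 without control 3, and the call held in both. Sfrp5 had 32 reads against 28 and did not pass.

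Among the Dickkopf genes, Dkk3, a divergent member that is abundant in fibroblasts, stood at 194, 198 and 195 CPM in control and 422, 410 and 423 CPM in high glucose. The groups were wide apart, and the log2 fold change was 1.10 ± 0.021 (adjusted p = 1.47e-13). Dkk2, a ligand of Lrp6, fell from 1.57, 1.73 and 1.88 CPM to 0.716, 0.686 and 0.806 CPM (-1.23 ± 0.218, adjusted p = 0.000349). Dkk4, at 6.38 to 7.00 CPM in control and 6.56 to 7.38 CPM in high glucose, did not pass (0.09 ± 0.092, adjusted p = 0.436). Wif1, which binds Wnts outside the cell, rose from 0.990, 0.728 and 1.23 CPM to 1.68, 2.25 and 1.98 CPM. The log2 fold change of Wif1 was 1.02 ± 0.238 (adjusted p = 0.0027).

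**Figure D2:**
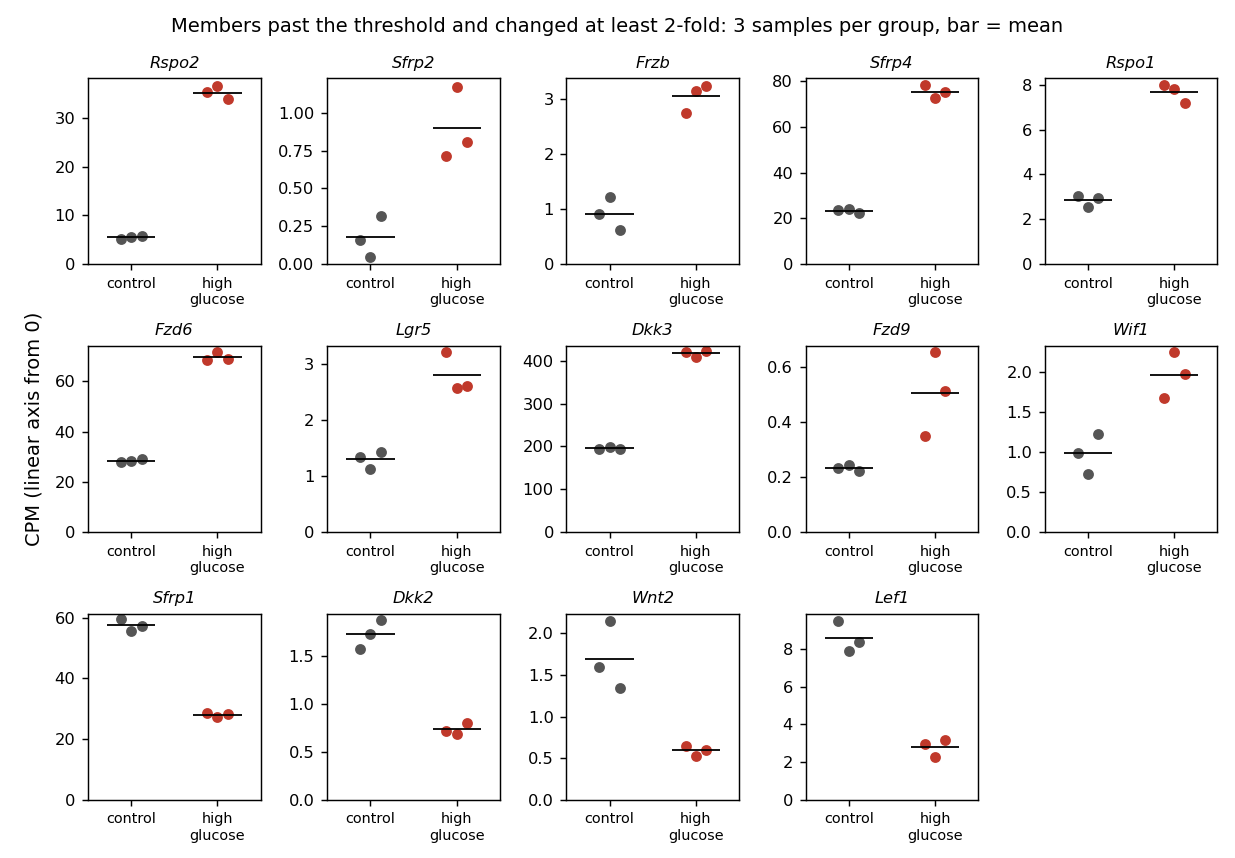
CPM in each of the 6 samples (linear axes from 0, control in grey, high glucose in red, bar = mean of 3) for the 14 members that passed and changed at least 2-fold. In each panel the 3 samples of one group lie above the 3 of the other. The panels were picked by these same values, and groups did not overlap in 57.6% of all genes. Sfrp2, Frzb, Fzd9, Wif1 and Wnt2 show the widest spread for their size.

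Rspo2 had the largest rise together with Sfrp2 but on far more reads, 482 in control and 3351 in high glucose. This agonist, which amplifies Wnt signals at the receptor, was at 5.09, 5.61 and 5.70 CPM in control and 35.2, 36.5 and 33.8 CPM in high glucose. The log2 fold change was 2.69 ± 0.067 (adjusted p = 1.72e-12). Rspo1 rose from 3.04, 2.57 and 2.93 CPM to 8.01, 7.80 and 7.17 CPM. Its groups did not overlap either, and the log2 fold change was 1.43 ± 0.114 (adjusted p = 2.02e-07). Rspo3 rose less, from 28.9, 29.8 and 27.8 CPM to 39.8, 38.3 and 41.3 CPM (0.47 ± 0.045, adjusted p = 1.19e-06). Rspo4 had 1 read in control and 3 in high glucose, a ratio of 2.77 with an exact (Clopper-Pearson) 95% counting interval of 0.223 to 146, which covers counting error only.

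Of the R-spondin receptors, Lgr5, a marker of stem cells in several tissues, rose from 1.35, 1.12 and 1.44 CPM to 3.22, 2.57 and 2.62 CPM. The log2 fold change of Lgr5 was 1.11 ± 0.185 (adjusted p = 0.000207). Lgr4, the broadly expressed receptor, rose from 112, 116 and 116 CPM to 148, 151 and 141 CPM, a log2 fold change of 0.36 ± 0.029 (adjusted p = 2.49e-07). Lgr6 had 87 reads in each group and did not pass. Rnf43, the ubiquitin ligase that removes Frizzled receptors, had 21 reads against 26 and did not pass (0.07 ± 0.505, adjusted p = 0.92). Of the 8 genes in this class 5 rose and 0 fell in limma, and 0 were lower at an unadjusted p under 0.05. Over all genes 24.9% rose and 25.5% fell in limma.

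Axin2 and Nkd2 encode inhibitors of the pathway inside the cell, and Axin2 is one that the pathway itself induces in many tissues. Axin2, a scaffold of beta-catenin destruction, fell from 11.4, 9.85 and 10.9 CPM to 5.55, 6.27 and 6.46 CPM. All high-glucose samples were below all controls, and the log2 fold change was -0.81 ± 0.092 (adjusted p = 6.56e-06). Nkd2, which binds Dishevelled, fell from 136, 126 and 126 CPM to 67.3, 67.3 and 66.9 CPM (-0.94 ± 0.033, adjusted p = 4.74e-11). Its relative Nkd1 was at 6.51 to 7.62 CPM in control and 6.78 to 7.11 CPM in high glucose and did not pass (0.01 ± 0.093, adjusted p = 0.942).

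All 4 TCF/LEF factors passed, 2 in each direction, where 50.5% of all genes passed, and 61.7% of those with a mean log2 of at least 0. Lef1 fell from 9.49, 7.91 and 8.37 CPM to 2.98, 2.25 and 3.18 CPM. With no overlap, the log2 fold change of this activator was -1.63 ± 0.139 (adjusted p = 4.09e-07). Tcf7 had a smaller log2 fold change, -0.29 ± 0.101 (adjusted p = 0.029), and lost its call on plain library totals (0.17) and when control 2 (0.124), high glucose 1 (0.0842) or high glucose 3 (0.0889) was left out. Tcf7l2 rose from 38.5, 37.3 and 35.8 CPM to 46.9, 48.1 and 50.6 CPM (0.38 ± 0.042, adjusted p = 5.01e-06). Tcf7l1, often a repressor, had a log2 fold change of 0.30 ± 0.073 with overlapping groups (adjusted p = 0.00366), which did not pass with 1 variance prior for all genes (0.0751). The TCF/LEF factors therefore did not share a direction.

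Promoters of the feedback and nuclear genes are shown because Axin2, Nkd1, Lef1 and Tcf7 are textbook targets of TCF/LEF factors. The windows are from RefSeq on build GRCr8, each the 250 bases before the annotated start, 5′ to 3′ on the gene's strand, with capitals marking CTTTGAT, the core of the TCF/LEF site. They are Axin2 (chr10:94398535-94398784, plus strand), Nkd1 (chr19:34722847-34723096, minus strand) and Lef1 (chr2:222340463-222340712, plus strand).
Axin2: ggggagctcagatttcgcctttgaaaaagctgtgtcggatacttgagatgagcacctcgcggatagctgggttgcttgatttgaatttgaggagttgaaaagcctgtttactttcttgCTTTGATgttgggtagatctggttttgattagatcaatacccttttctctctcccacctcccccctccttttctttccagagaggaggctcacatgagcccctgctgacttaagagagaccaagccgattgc
Nkd1: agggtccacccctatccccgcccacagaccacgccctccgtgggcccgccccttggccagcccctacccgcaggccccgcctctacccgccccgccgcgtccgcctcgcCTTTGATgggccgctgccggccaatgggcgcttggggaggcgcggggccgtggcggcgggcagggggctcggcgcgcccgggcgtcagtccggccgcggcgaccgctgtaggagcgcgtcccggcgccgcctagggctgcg
Lef1: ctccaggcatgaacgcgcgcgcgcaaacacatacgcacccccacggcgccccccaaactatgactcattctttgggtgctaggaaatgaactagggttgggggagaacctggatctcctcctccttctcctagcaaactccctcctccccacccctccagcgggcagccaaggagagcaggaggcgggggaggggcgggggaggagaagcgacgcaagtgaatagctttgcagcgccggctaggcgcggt

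The motif was searched on both strands in windows of 300 bases, from 250 before to 50 after the start, and windows were found for 34 of the 49 members. It was present in 3 of these 34 (8.82%) and in 1216 of all 33469 rat windows (3.63%). In Axin2, which fell, it begins 132 bases before the start, and in Nkd1, which did not pass, 141 bases before it. The match in Tcf7 begins 4 bases before the start and runs across it. A match was held by 0 of 14 windows of members that rose, 2 of 10 that fell and 1 of 10 that did not pass. These counts are too small to tell the groups apart. Lef1 and Nkd2, which both fell, hold none in this window. A match describes letters in the window, not binding.

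Other genes of the pathway were read from 5 lists, described by counts. Over all genes 50.5% passed in limma, 24.9% higher and 25.5% lower, and across the lists the share that passed ran from 44.8% (beta-catenin complex) to 80.8% (target genes). Among genes of Wnt secretion and extracellular partners, 6 of 19 were higher and 7 lower, with a median log2 fold change of 0.02. Porcn, which attaches the lipid to Wnts, had a log2 fold change of -0.19 ± 0.073 (adjusted p = 0.0437), and Wls, the carrier that brings Wnts to the cell surface, one of 0.10 ± 0.022 (adjusted p = 0.00127). Sostdc1, a secreted inhibitor of BMP and Wnt signals, had 32 reads in control and 8 in high glucose (-2.06 ± 0.506, adjusted p = 0.00391). Trabd2b, a membrane protease that cleaves Wnts, fell from 32.0, 32.3 and 29.4 CPM to 14.3, 14.8 and 14.1 CPM (-1.11 ± 0.054, adjusted p = 1.2e-09). Notum, the enzyme that strips the lipid from Wnts, had 4 reads against 22 (1.85 ± 0.597, adjusted p = 0.0198).

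The list of the beta-catenin destruction and nuclear complex had 6 of 29 higher and 7 lower, with a median of -0.02. Ctnnb1, which encodes beta-catenin, was at 354, 358 and 380 CPM in control and 354, 375 and 350 CPM in high glucose. The groups overlapped and the difference did not pass (-0.02 ± 0.031, adjusted p = 0.691). Of the planar cell polarity genes 5 of 19 were higher and 9 lower, with a median of -0.11. Of the Wnt/calcium branch 2 of 18 were higher and 9 lower, with a median of -0.11. Nfatc2, a calcium-regulated transcription factor, fell from 2.18, 2.31 and 2.11 CPM to 0.517, 0.559 and 0.513 CPM (-2.06 ± 0.216, adjusted p = 3.08e-06). Prkcb, a protein kinase C, fell from 177 reads to 92 (-1.10 ± 0.256, adjusted p = 0.00279). On plain library totals the calls of these 3 lists were 15 higher and 2 lower, 8 and 5, and 6 and 5. Over all 16551 genes the calls in that setting were 5932 higher and 2847 lower.

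Commonly cited beta-catenin target genes, a list that holds 6 of the members, had 7 of 26 higher and 14 lower, with a median of -0.29. Without the members, 6 of 20 were higher and 11 lower. Over all genes 24.9% were higher and 25.5% lower. On plain library totals the whole list had 7 higher and 11 lower, where all genes gave 5932 higher and 2847 lower. Apcdd1 and Notum, both higher, are also on the list of Wnt secretion and extracellular partners. Ccnd1, a cyclin of the start of the cell cycle, fell from 80.6, 76.8 and 79.4 CPM to 37.6, 33.6 and 37.0 CPM (-1.13 ± 0.044, adjusted p = 1.27e-10). Fgf18, a growth factor, fell from 3.55, 2.83 and 2.35 CPM to 1.08, 0.782 and 1.04 CPM (-1.58 ± 0.216, adjusted p = 3.71e-05). Mitf, a transcription factor of pigment cells, rose from 5.60, 6.84 and 6.10 CPM to 11.0, 14.2 and 12.2 CPM (1.01 ± 0.105, adjusted p = 2.89e-06). Members of this list are regulated by many other pathways too.

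**Figure D3:**
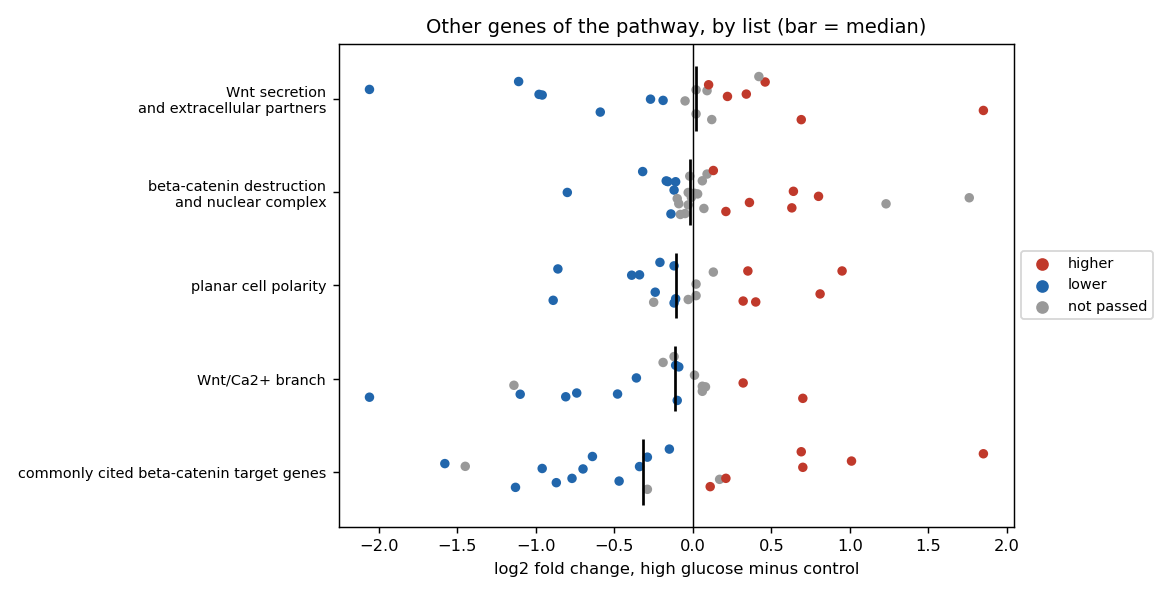
Log2 fold change, high glucose minus control, of the pathway genes that are not members, in 5 lists, with a black bar at the median of the genes drawn. Red and blue points passed at an adjusted p under 0.05. Points lie on both sides of 0 in every list, and Sostdc1 and Nfatc2 are lowest at -2.06. Apcdd1 and Notum are drawn under both lists that hold them.

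Markers of cell types moved in the same comparison, in which 24.9% of all genes were higher and 25.5% lower. The labels call the cells nerve cells, yet 5 of 15 pan-neuronal markers (Elavl4, Snap25, Rbfox3, Isl1 and Pou4f1) were at 0 reads in at least 1 sample. Of these 15 markers 8 were lower, 7 of them by at least 2-fold, and 1 was higher. The median log2 fold change of the 15 was -1.74. Their summed level was 125 to 128 CPM in control and 80.5 to 87.3 CPM in high glucose. Of 13 markers of Schwann cells and satellite glia 11 were lower and 0 higher in limma (0 higher at an unadjusted p under 0.05). At least 2-fold lower were 4 of these glial markers, and the list had a median log2 fold change of -0.71. It summed to 638 to 666 CPM in control and 386 to 414 CPM in high glucose. Mural and smooth muscle markers were lower in 7 of 12 and higher in 3, with sums of 15000 to 15200 CPM and 8450 to 8520 CPM. Of these, 5 were lower and 1 higher by at least 2-fold, and the list had a median log2 fold change of -0.73. Fibroblast markers were higher in 7 of 13 and lower in 5, with sums of 59000 to 61000 CPM and 53100 to 55700 CPM. Their median log2 fold change was 0.24 while the sum fell, a sum being set mostly by the most abundant genes of a list. Markers of meninges and perineurium were higher in 3 of 8 and lower in 0 (1 lower at an unadjusted p under 0.05), with sums of 319 to 335 CPM and 475 to 491 CPM. Of 9 endothelial markers 1 was higher and 0 lower in limma (2 lower at an unadjusted p under 0.05), and of 10 macrophage markers 1 was higher and 3 lower, each of the 3 by at least 2-fold. Endothelial and macrophage markers summed to 82.8 to 86.2 CPM and 13.1 to 14.4 CPM in control, and to 81.2 to 83.0 CPM and 12.9 to 14.4 CPM in high glucose. The part of these differences in the changes of the Wnt genes was not tested. Over the 6 samples the median pan-neuronal marker was at 0.744 CPM, the median fibroblast marker at 210 CPM and the median mural marker at 216 CPM. Which cells the Wnt reads came from was not tested either.

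In the RefSeq gene table (build GRCr8) 15 of the 49 members overlap another gene, 5 of them a protein-coding one: Fzd5, Lgr5, Sfrp4, Wnt10b and Wnt5b. The strand of the authors' counting is not given in the sources used here, so reads of these genes and of their neighbours could be mixed.

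**Figure D4:**
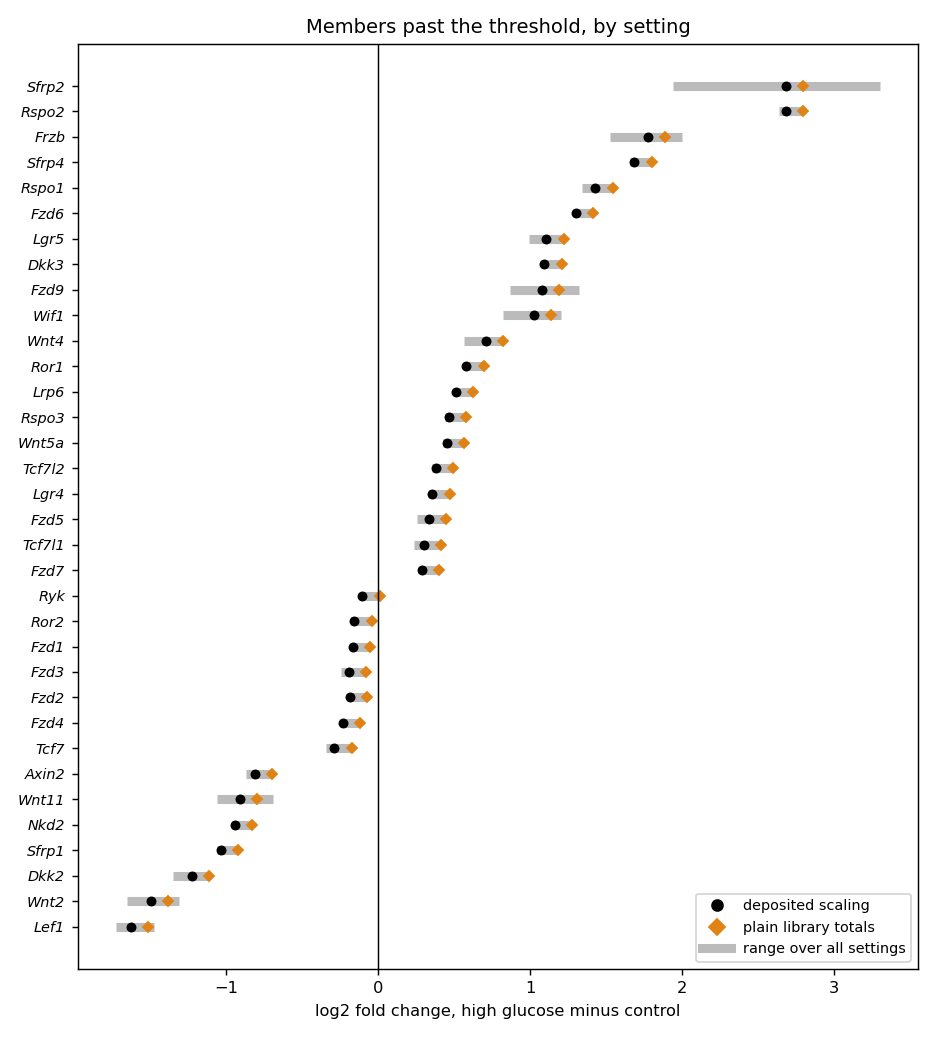
Log2 fold change, high glucose minus control, of the 34 members that passed, in the deposited scaling (black), on plain library totals (orange) and as the range over all settings tried (grey). Ryk lies on both sides of 0, the other members keep their sign, and Sfrp2 has the widest range, 1.94 to 3.31.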

How the data were processed

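RNA sequencing of 3 control and 3 high-glucose samples was used as the authors deposited it, as a table of mRNA genes whose values are on the log2 scale. The tools named per the submitters' processing notes are featureCounts 1.6.0, HISAT2 2.1.0 and fastp 0.19.4, with the build Rnor_6.0; settings, annotation version and strand are not given in the sources used here. The deposited values are log2 CPM of the voom form, with 0.5 read added. Whole reads were worked back from them (100% of values within 0.01 of a whole number), giving 28780612 to 33108451 reads per sample and scaling factors of 0.959 to 0.964 (control) and 1.03 to 1.05 (high glucose). Every gene in the table had reads in at least 3 samples.

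Groups came from the sample titles. The whole table was fitted with limma 3.58.1 in R 4.3.3 (group as the term, variance trend, two-sided, Benjamini-Hochberg adjustment over 16551 genes, threshold 0.05). The procedure was tested on simulated data in which only well-read genes were changed, each by at least 2-fold. That says nothing of how well smaller changes, or changes in genes with few reads, are found. All members are named. Members past the threshold with an absolute log2 fold change of at least 1 are given by sample, and those with a mean under 10 reads by their reads. Other pathway genes are named by the same threshold, besides Ctnnb1, Porcn and Wls. Members and lists were chosen with earlier results of these data known. Count models were not used. The table of lncRNA rows was not used. The alternatives were 1 variance prior, quantile normalization, plain library totals, 2 reads added, both filters on low genes, voom weights, the replicate block and leaving out each sample. Plots were made in Python 3.11.15 with matplotlib 3.10.9.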

Additional observations from a re-analysis of the deposited data

How the results depend on the processing

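Of the 34 members that passed, 26 kept their direction and call under each of the 14 alternatives that gave a value for them, and 8 lost the call in at least 1. Of the 15 that did not pass, 3 passed in at least 1. Genes with a low mean have no value under the filters on low genes. What lay behind each change was not tested beyond the smaller set of genes or samples that an alternative leaves.

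On plain library totals 8 members were lower, not 14: 2 receptors, 2 secreted antagonists, 2 cytoplasmic inhibitors, 1 ligand and 1 TCF/LEF factor. The beta-catenin complex then had 15 higher and 2 lower, the polarity list 8 and 5, and the Wnt/calcium list 6 and 5. Calls over all genes in that setting were 5932 higher and 2847 lower. The ligands that were lower numbered 0 when genes of a mean below 0 (log2) were dropped, 1 with the lowest 25% of genes left out and 1 with the replicate block. With 1 variance prior 1 TCF/LEF factor was higher. Leaving out each sample gave 1 to 2 lower ligands and 1 to 2 lower TCF/LEF factors.

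The sign changed for Ryk (0.01), Lrp5 (0.086) and Lgr6 (0.012) on plain library totals, and for Rnf43 (-0.09) and Nkd1 (-0.026) after quantile normalization. Leaving out samples gave ranges across 0 of -0.879 to 0.129 for Wnt10b, -0.265 to 1.143 for Wnt6, -0.074 to 0.028 for Lrp5, -0.608 to 0.015 for Sfrp5, -0.216 to 0.016 for Lgr6, -0.285 to 0.569 for Rnf43 and -0.033 to 0.080 for Nkd1. Except for Ryk, none of these passed in any setting.

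The replicate numbers gave no sign of pairing the samples, though with 3 samples per group a weak shared effect could be missed. Deviations from the group means correlated at -0.0921, -0.0433 and 0.0255 for numbers 1, 2 and 3 over 12247 genes. Not every sample correlated best with its own number. With the replicate block 20 members were higher and 12 lower, Wnt11 (adjusted p = 0.0509) and Fzd3 (0.0575) being the calls not made.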
